A study of Homo sapiens with 3 samples.

Results

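The genes of cytosolic translation initiation and elongation factors were examined by RNA sequencing in cells labelled KG1a (3 libraries), a human acute myeloid leukaemia line. Members were chosen by name: protein-coding genes of GENCODE release 29 whose symbol begins with the letters of eIF1, eIF2 (subunit genes), eIF2B, eIF3, eIF4A, eIF4B, eIF4E, eIF4G, eIF4H, eIF5, eIF6, eEF1 or eEF2. The eIF4E-binding proteins, EEF2K, EEF2KMT and chromosome Y were left out. The rule gave 59 of the 58735 genes in the files. It also takes in the 4E transporter EIF4ENIF1, 4 methyltransferase genes of eEF1A and 2 readthrough genes, which are named for a factor and are not factors themselves. EIF1AD, a gene for a protein with an eIF1A-like domain, is likewise a member by name.

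Cells of the control library were infected with a lentivirus carrying a control hairpin (shCtrl, genotype wild type), and cells of the 2 other libraries with a lentivirus carrying a hairpin against TRAF7 (shTRAF7, genotype TRAF7 knockdown), a RING-domain ubiquitin ligase. The labels number the knockdown libraries 1 and 2 without naming a culture or a hairpin sequence for either. Each p-value thus covers only how these 3 samples scatter, which may be technical. The question here is how transcripts of the translation machinery compare between control and TRAF7-depleted cells. TRAF7 was at 46.5 FPKM in the control against 15.6 and 18.3 in knockdown libraries 1 and 2, which is 33.6% and 39.4% of the control (limma adjusted p = 0.274; limma-voom on recovered reads 2.7e-05). FPKM is a read number scaled by exon length and by a divisor for each library. The divisors that the deposited values imply are 16884224 reads for the control and 15564009 and 16261681 for knockdown libraries 1 and 2, whereas the reads in genes number 16014485, 16221721 and 16254461. Relative to scaling by reads in genes, the deposited FPKM thus places every gene 9.89% higher against the control in knockdown 1 and 5.38% higher in knockdown 2.

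Of the label's defining markers, CD34, the surface antigen by which KG1a is best known, was listed at 0 FPKM in the control against 0.00697 and 0.0667 in knockdown libraries 1 and 2, on 0, 1 and 10 reads. CD38 and ITGA4 had at most 5 reads in any library, whereas the other 5 of these 8 markers had a mean of at least 1 FPKM. PTPRC was at 9.54 FPKM in the control against 5.60 and 6.53, SPN at 46.2 against 45.3 and 32.9, and GATA2 at 40.5 against 45.3 and 48.8, so 2 were lower and 1 was higher in both knockdown libraries. MYB (35.3, 29.2 and 37.8) and CD33 (5.37, 2.66 and 5.48) had the control between them, and the 8 summed to 136.9, 128.1 and 131.6. Of 8 erythroid markers 6 had such a mean, and 4 of these (HBA1, HBA2, HBG1 and TFRC) were at least 25% higher in both knockdown libraries. The summed level of the 8 was 133.4 FPKM in the control against 310.6 and 258.6 in knockdown libraries 1 and 2, with SLC4A1 at 0.225 to 1.05 FPKM and HBB at 0.345 to 1.89. Lymphoid markers summed to 5.62 to 7.33 FPKM (1 of 6 tested; MS4A1 listed at 0 in all 3 libraries), and stromal and epithelial markers to 131.7, 162.3 and 144.8 (3 of 8 tested, with KRT8 and KRT18 highest and COL1A2 and CDH1 at 0 in the control). The part of these markers in the results below was not tested, and in bulk RNA fewer cells of a type and less RNA per cell cannot be told apart.

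Initiation begins when eIF2, carrying the initiator tRNA, joins the small ribosomal subunit together with eIF1, eIF1A, eIF3 and eIF5. The eIF4 factors bind the mRNA cap and unwind the leader, eIF5B joins the large subunit, and eIF2B reloads eIF2 with GTP. Elongation is carried by eEF1A, which brings aminoacyl-tRNA, its exchange factor eEF1B, the translocase eEF2 and the hypusine-bearing factor eIF5A. Leukaemic cells are known for a high demand on this machinery.

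As deposited, genes named for initiation factors, counted together with the 3 eIF5A genes, were more often higher than lower in both knockdown libraries (28 against 5 of 44). The 3 eIF5A genes had the highest median log2 fold change of the complexes (0.59). That median is the value of EIF5AL1, a copy whose reads may be shared with EIF5A, and EIF5A2 was at 0.13. The abundant elongation factors EEF1A1 and EEF2 were near the control or slightly below it in deposited values. The split of the 44 narrowed to 20 against 12 when libraries were scaled by their reads in genes. On that scale 0 of the 6 tested eEF1 and eEF2 genes were above the control in both and 4 were below, beside 3 and 3 as deposited. Of 59 members, 54 had a mean of at least 1 FPKM and were tested. EIF4E3 had less, and EEF1G, EIF4E1B and the readthrough genes EEF1E1-BLOC1S5 and EEF1AKMT4-ECE2 were listed at 0 in all 3 libraries. Both knockdown libraries lay above the control for 31 of the 54 (57.4%), against 42.5% of all 12640 genes tested and 46.5% of the protein-coding ones. Both lay below it for 11 (20.4%), against 30.8% and 27.8%. The remaining 12 had the control between the knockdown libraries, and the knockdown values share that 1 control.

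Most differences were small. A value at least 25% higher in both knockdown libraries was found for 10 members (18.5%, against 10.5% of all genes tested). One at least 20% lower, the same fold, was found for 0 (against 9.6%). By reads in genes the counts were 7 and 0, beside 810 and 1737 of the 12640 genes tested. The higher count fell there from 1 to 0 in eIF2B and from 4 to 2 in the eIF4 group. The 10 as deposited were EIF1AD, EIF2S1, EIF2B3, EIF3I, EIF4A2, EIF4A3, EIF4E, EIF4E2, EIF5A and EIF5AL1. The median fitted log2 fold change of the 54 was 0.14, beside 0.04 over all genes tested and 0.06 over protein-coding genes. Members are more abundant than most genes, with a median of 35.3 FPKM beside 6.14, and abundant genes were more often higher: where the mean reached 5 FPKM, both knockdown libraries were above the control for 53.5% of genes and for 29 of 45 members (64.4%), and below it for 22.4% and 15.6%.

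By limma on log2(FPKM + 1), 0 of the 54 members passed an adjusted p of 0.05, and so did 0% of all genes tested. The lowest adjusted p of a member was 0.403. At an unadjusted p under 0.05 there were 8 members, all higher (14.8%, against 5.46% of all genes higher and 3.73% lower). By limma-voom, run on the recovered reads, 0 of 55 members passed over all genes, where 0.865% of 15034 genes did. There 16 members had an unadjusted p under 0.05, 14 of them higher, which is 29.1% against 12.1%. Library sizes in limma-voom were the divisors implied by FPKM, so its directions carry the same lift as the deposited values. The smallest adjusted p there was 0.0666, that of EIF5A. The fit has 1 residual degree of freedom, and the lone control is assumed to vary as the knockdown libraries do.

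Direction depends on scaling. When each library was set to the same FPKM total (TPM), the median over all genes moved by −0.12 on the log2 scale and the members' split became 17 above and 20 below, against 26.8% and 47.1% of all genes. When values were scaled by reads in genes, a setting added after the data were seen, that median moved by −0.088 and the split became 20 above and 19 below, against 29.8% and 43.7%. Members that were above in both libraries as deposited and not on that scale were EIF1B, EIF5, EIF2S2, EIF2B4, EIF3H, EIF3J, EIF3M, EIF5A2, EEF1B2, EEF1D and EEF1E1. Those below in both on that scale alone were EIF1, EIF3A, EIF3D, EIF3F, EIF3H, EIF4A1, EIF4G3 and EEF1E1. The counts above and below given in what follows are of deposited values. Relative to the median over all genes, the members' median was 0.095 higher as deposited, 0.11 higher in TPM and 0.098 higher by reads in genes. Under quantile normalization the same difference was 0.02.

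**Figure D1:**
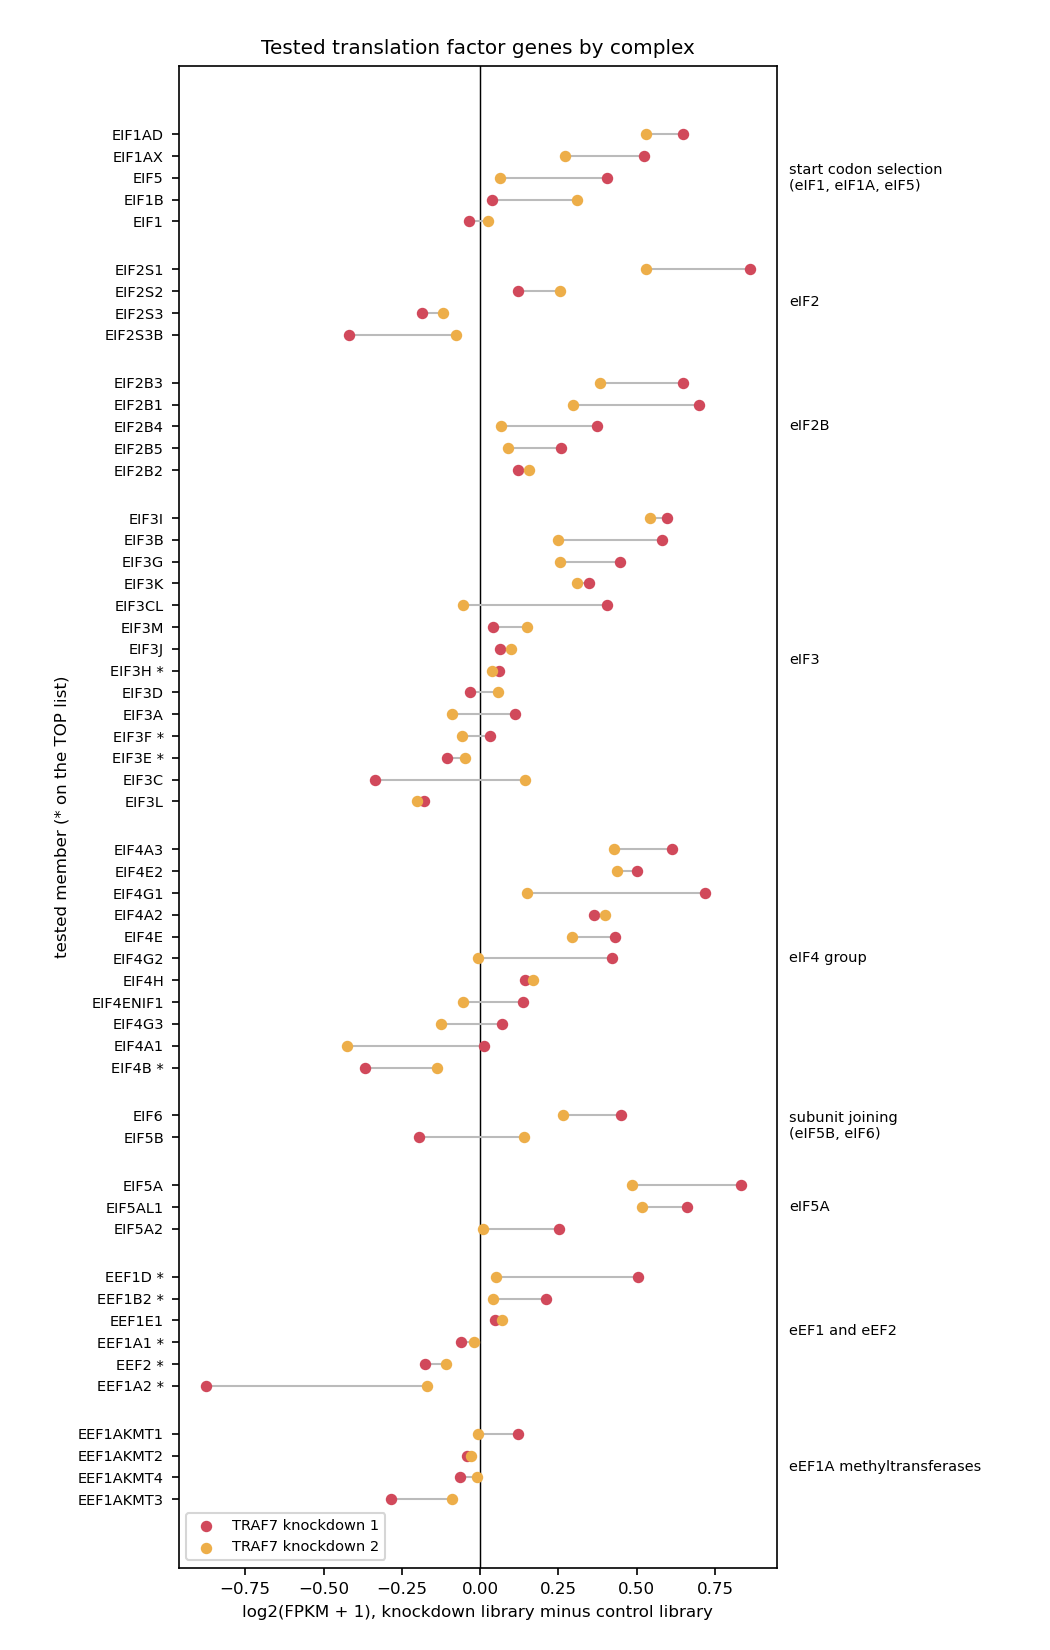
Difference in log2(FPKM + 1) from the control library for each of the 54 tested members, grouped by complex; points are knockdown library 1 and knockdown library 2, a grey line joins them, and an asterisk marks members on the list of terminal oligopyrimidine mRNAs. EIF2S1 and EIF5A lie farthest to the right and EEF1A2 in knockdown 1 farthest to the left.

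Of the 5 genes grouped under start codon selection, EIF1AD and EIF1AX had the highest fitted log2 fold changes. EIF1AD was placed in this group by its name. EIF1AX, which encodes eIF1A (X, 20124518 to 20141844, minus strand, GRCh38), was at 33.8 FPKM in the control against 49.01 and 41.0 in knockdown libraries 1 and 2. EIF1AD, a gene for a protein with an eIF1A-like domain (chromosome 11, 65996545 to 66002176, minus strand), was at 7.64, 12.5 and 11.5. In both genes the knockdown libraries stood above the control, with fitted log2 fold changes of 0.40 ± 0.19 (SE) and 0.59 ± 0.18.

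EIF1, the start codon fidelity factor, was by contrast at 183.2, 178.7 and 186.4 FPKM, with the control inside the knockdown range. Its paralogue EIF1B was at 22.4, 23.1 and 28.0, so only knockdown 2 stood clear of the control. EIF5, the GTPase activator of eIF2, was at 33.1, 44.2 and 34.7, and here only knockdown 1 did; its exact 95% Poisson interval (43.05 to 45.3) lay apart from that of the control (32.2 to 34.1). Such intervals cover counting error only. Of these 5 genes, 4 had both knockdown libraries above the control (2 by reads in genes), and their summed FPKM was 109.7% and 107.6% of it, although below it in TPM.

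The 3 subunits of eIF2 differed in direction. EIF2S1 encodes the alpha subunit, whose phosphorylation slows initiation under stress (ENSG00000134001, chromosome 14, 67359997 to 67386516, plus strand). It was at 16.1 FPKM in the control (exact 95% Poisson interval 15.3 to 16.9) against 30.005 (28.9 to 31.2) and 23.7 (22.7 to 24.7) in knockdown libraries 1 and 2. The 3 intervals were apart, both knockdown libraries were higher at 186.7% and 147.2% of the control, and the fitted log2 fold change of 0.70 ± 0.21 (SE; limma adjusted p = 0.469) was the highest of the 54.

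EIF2S2, the beta subunit, was at 109.6, 119.4 and 130.9 FPKM, higher in both libraries as deposited but not by reads in genes or under quantile normalization. EIF2S3, the GTP-binding gamma subunit, was at 180.8, 159.02 and 166.6, lower in both. Its near copy EIF2S3B on chromosome 12 was at 4.99, 3.47 and 4.67, on 131 to 204 reads. Of 30 bases around the start, 28 are identical between EIF2S3 and 1 of 2 annotated starts of EIF2S3B (RefSeq, GRCh38.p14). At the other, with the windows compared unshifted, 12 are. Identity over whole transcripts was not measured, and how the reads divide between these genes is uncertain. The windows with 28 identical bases are shown to let the copies be compared, with capitals for the pyrimidine run that begins at the start:
EIF2S3 (chrX:24054946-24054975, plus strand): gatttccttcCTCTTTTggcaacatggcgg
EIF2S3B (chr12:10505880-10505909, plus strand): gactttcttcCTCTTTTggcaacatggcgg

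All 5 subunit genes of eIF2B, the exchange factor on which phosphorylated eIF2 acts, had both knockdown libraries above the control as deposited; 4 did by reads in genes and 2 in TPM, with 0 below in either. The alpha subunit gene EIF2B1 (chromosome 12, 123620406 to 123633766) had 25.9, 42.7 and 32.04 FPKM, while the gamma subunit gene EIF2B3 (chromosome 1, 44850522 to 44986722) had 28.5, 45.3 and 37.5. These 2 were the most abundant of the 5, and in both the knockdown libraries also differed from each other, with knockdown 1 higher. Fitted differences (log2) were 0.50 ± 0.22 (SE) for EIF2B1 and 0.52 ± 0.19 for EIF2B3. EIF2B4 was at 9.51, 12.6 and 10.02, EIF2B5, the catalytic epsilon subunit, at 10.3, 12.5 and 11.01, and EIF2B2 at 5.23, 5.78 and 5.94. The summed FPKM of the complex was 149.6% of the control in knockdown 1 and 121.4% in knockdown 2.

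Within eIF3, the large scaffold that holds mRNA, ribosome and the other factors together, some subunits were higher and others were at the control level. EIF3I, a WD-repeat subunit (ENSG00000084623, chromosome 1, 32221928 to 32231604, plus strand), was at 137.03 FPKM in the control (interval 132.8 to 141.3) against 207.9 (202.5 to 213.4) and 200.1 (194.9 to 205.4) in knockdown libraries 1 and 2. Both knockdown libraries were higher, at 151.7% and 146.0% of the control, and they lay closer to each other than to the control; the fitted log2 fold change was 0.57 ± 0.13 (SE; limma adjusted p = 0.403).

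EIF3B and EIF3G, which form a module of eIF3 together with EIF3I, had knockdown values above the control too. EIF3B, its scaffold, was at 65.4, 98.4 and 77.8 FPKM, and EIF3G, an RNA-binding subunit, at 71.7, 98.1 and 85.7. EIF3K, a small subunit of the octamer core, was at 92.7, 118.1 and 115.2. Fitted differences (log2) of these 3 genes were 0.42 ± 0.19 (SE), 0.35 ± 0.17 and 0.33 ± 0.15. The order of the knockdown libraries was the same in each, with knockdown 1 the higher.

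Other subunits of the octamer core, EIF3A, EIF3E, EIF3F, EIF3H and EIF3M, had fitted differences near 0. EIF3A, the largest subunit, was at 67.9, 73.5 and 63.8 FPKM and EIF3E at 86.5, 80.2 and 83.7. EIF3H was at 54.2, 56.6 and 55.7, and EIF3F at 20.03, 20.5 and 19.2. Fitted log2 fold changes were 0.01 for EIF3A, −0.08 for EIF3E, 0.05 for EIF3H and −0.01 for EIF3F. EIF3M was at 0.10, the cap-binding subunit EIF3D at 0.01 and the loosely bound EIF3J at 0.08. EIF3L, at 59.3, 52.3 and 51.4, was lower in both knockdown libraries, with an overlap of 51.8% of its exonic bases with other genes.

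EIF3C and EIF3CL are near-identical copies on chromosome 16, and their values cannot be read apart. EIF3C was at 6.89, 5.25 and 7.72 FPKM and EIF3CL at 2.97, 4.26 and 2.83, with opposite directions in knockdown 1. Together they held 967, 776 and 1018 reads. Apart from this pair, subunit levels per length spanned 6.84-fold in the control, from EIF3F to EIF3I, and 10.1-fold and 10.4-fold in the knockdown libraries. Of the 14 genes, 7 had both knockdown libraries above the control, 2 below and 5 neither. The median log2 fold change was 0.06 and turned to −0.07 in TPM and to −0.039 by reads in genes, where 4 were above and 6 below.

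**Figure D2:**
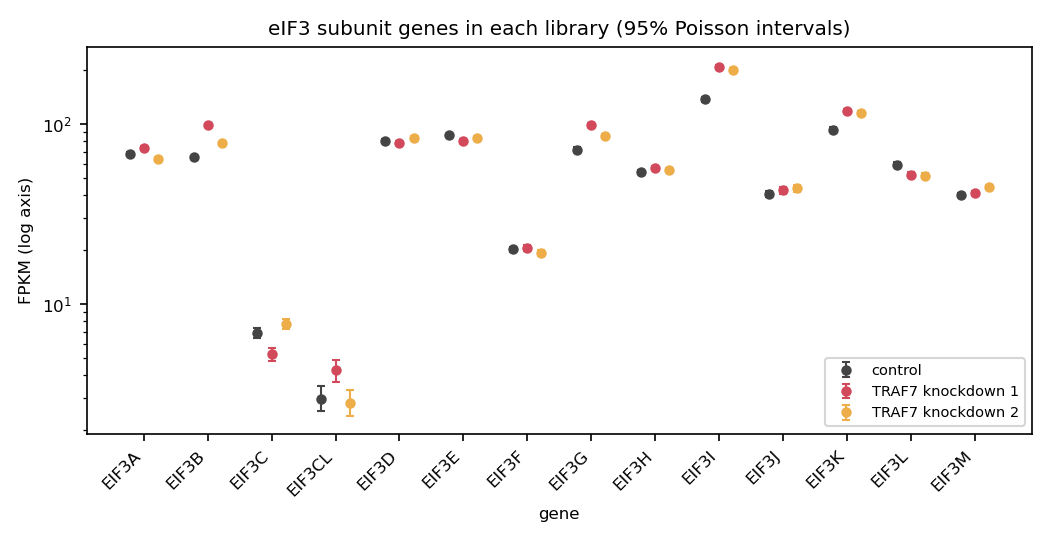
FPKM of the 14 eIF3 subunit genes in each library on a log axis, with exact 95% Poisson intervals of the recovered reads. EIF3I, EIF3B, EIF3G and EIF3K have both knockdown libraries above the control, and EIF3C and EIF3CL lie far below the other subunits.

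Among the cap-binding and mRNA-unwinding factors of the eIF4 group, EIF4E, EIF4E2, EIF4A2 and EIF4A3 were higher in both knockdown libraries and EIF4B was lower in both. EIF4E, the cap-binding protein (chromosome 4, 98871684 to 98930637, minus strand), was at 4.62 FPKM in the control (interval 4.35 to 4.90) against 6.57 (6.23 to 6.92) and 5.88 (5.57 to 6.21) in knockdown libraries 1 and 2. EIF4E2, a related cap-binding protein known as 4EHP that represses translation, was at 4.79, 7.21 and 6.85. As deposited, each knockdown library was at least 25% above the control in both genes, with fitted log2 fold changes of 0.36 ± 0.18 (SE) and 0.47 ± 0.17. EIF4E3 had 46 reads in the control against 3 and 28 in knockdown libraries 1 and 2, which is 0.253, 0.0179 and 0.160 FPKM and below the filter. EIF4E1B was listed at 0.

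Of the DEAD-box helicases, EIF4A2 was at 34.2, 44.2 and 45.3 FPKM, and EIF4A3, which serves in the exon junction complex rather than in cap-dependent initiation, at 22.6, 35.1 and 30.7. Both had both knockdown libraries higher, at 129.5% and 132.7% of the control for EIF4A2 and 155.3% and 136.0% for EIF4A3. EIF4A1, the main initiation helicase, was at 6.26, 6.32 and 4.41 FPKM on 562, 523 and 381 reads. Only knockdown 2 stood apart there, below the control. Of its exonic bases 48.6% lie in exons of other genes on the same strand, among them SENP3-EIF4A1, so the level of EIF4A1 and its ratio to EIF4A2 (5.46-fold more EIF4A2 per length in the control) are uncertain.

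In all 3 scaffold genes of the group knockdown 1 was the highest library. EIF4G1, which bridges cap-binding protein, helicase and eIF3, was at 53.7 FPKM in the control (interval 52.5 to 54.98) against 89.1 (87.5 to 90.8) and 59.8 (58.5 to 61.1) in knockdown libraries 1 and 2. Its fitted log2 fold change was 0.44 ± 0.26 (SE), and knockdown 1 carried most of it, at 165.9% of the control beside 111.2%. EIF4G2, known as DAP5, was at 86.6, 116.3 and 86.2 and EIF4G3 at 8.18, 8.63 and 7.41. For both, only 1 knockdown library was above the control.

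EIF4B, which stimulates the helicase (chromosome 12, 53006158 to 53042209, plus strand), was at 160.2 FPKM in the control (interval 157.8 to 162.7) against 124.05 (121.8 to 126.3) and 145.6 (143.2 to 148.0) in knockdown libraries 1 and 2. Both knockdown libraries were lower, at 77.4% and 90.9% of the control, with a fitted log2 fold change of −0.25 ± 0.16 (SE; limma adjusted p = 0.673). EIF4H, a related cofactor and the most abundant initiation factor per length in the control, was at 220.5, 243.7 and 247.9. EIF4ENIF1, a shuttling protein that binds the cap-binding protein, was at 4.23, 4.75 and 4.04. In all, 6 of the 11 tested members of the group had both knockdown libraries above the control and 1 below, with a median of 0.21 that stayed above 0 in each scaling tried.

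**Figure D3:**
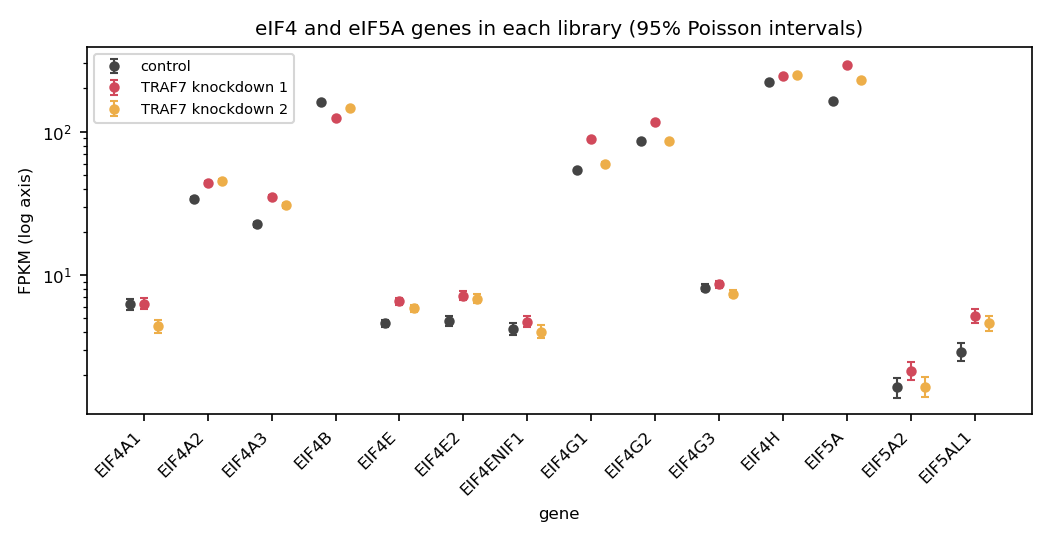
FPKM of the 11 tested genes of the eIF4 group and the 3 eIF5A genes in each library on a log axis, with exact 95% Poisson intervals. EIF5A, EIF4E, EIF4E2, EIF4A2 and EIF4A3 have both knockdown libraries above the control, and EIF4B has both below.

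In the pair that acts at subunit joining, EIF6, which keeps the large subunit from joining too early, was at 54.8, 75.3 and 66.1 FPKM, higher in both knockdown libraries. EIF5B, the joining GTPase, was at 29.8, 25.9 and 32.9, with the control between them. Fitted log2 fold changes were 0.36 ± 0.17 (SE) for EIF6 and −0.03 ± 0.21 for EIF5B.

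EIF5A had the next highest fold change after EIF2S1 and the largest gain in level among initiation factors and eIF5A genes. The gene (ENSG00000132507, chromosome 17, 7306999 to 7312463, plus strand) encodes the factor that carries hypusine and relieves ribosomes stalled on proline-rich stretches. It was at 163.8 FPKM in the control (interval 160.1 to 167.4) against 292.7 (287.6 to 297.8) and 229.7 (225.3 to 234.1) in knockdown libraries 1 and 2, on 7783, 12823 and 10515 reads. All 3 intervals were apart, and the knockdown libraries were at 178.7% and 140.3% of the control. The fitted log2 fold change was 0.66 ± 0.18 (SE; limma adjusted p = 0.443, limma-voom 0.0666).

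The copy EIF5AL1 on chromosome 10 was at 2.93, 5.22 and 4.63 FPKM, in the same direction and on 190 to 312 reads, which may be shared with EIF5A. EIF5A2, the second isoform gene, was at 1.65, 2.16 and 1.67, so that EIF5A exceeded it 99.1-fold per length in the control, by 135.5-fold in knockdown 1 and by 137.4-fold in knockdown 2. Of the enzymes that make hypusine, DOHH was at 19.8, 36.7 and 21.9 FPKM and DHPS at 3.11, 4.47 and 2.60. Both were highest in knockdown 1.

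**Figure D4:**
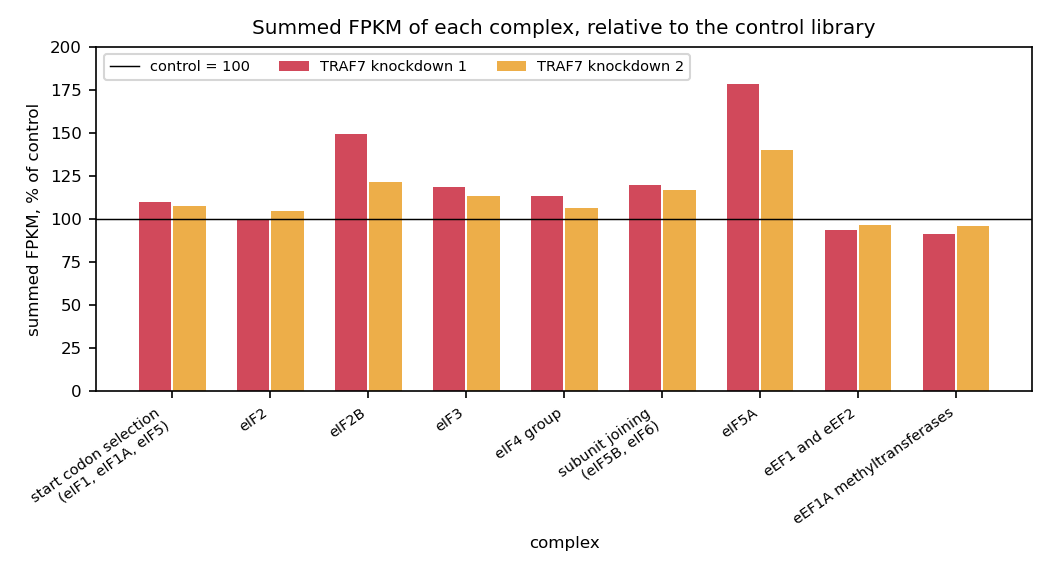
Summed FPKM of each complex in knockdown library 1 and knockdown library 2 as a percent of the control library, drawn as bars from 0 with a line at 100. The eIF5A genes (178.3% and 140.2%) and eIF2B (149.6% and 121.4%) stand highest, and the elongation factors (93.9% and 96.8%) lie below the control.

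The elongation factors held most of the signal. EEF1A1, which brings aminoacyl-tRNA to the ribosome (ENSG00000156508, chromosome 6, 73515750 to 73523797, minus strand), was at 3354.0 FPKM in the control against 3212.4 and 3311.9 in knockdown libraries 1 and 2. EEF2, the translocase (ENSG00000167658, chromosome 19, 3976056 to 3985469, minus strand), was at 1915.0, 1694.6 and 1775.4. As deposited, the knockdown libraries of both genes were below the control, by little in EEF1A1 (95.8% and 98.7%) and by more in EEF2 (88.5% and 92.7%). Fitted differences (log2) were −0.04 ± 0.06 (SE) and −0.14 ± 0.07 (limma adjusted p = 0.860 and 0.602). Together they made up 66.9% of the summed FPKM of all members in the control, but 61.5% in knockdown 1 and 63.8% in knockdown 2. Without them, the members' sum was 118.1% and 111.0% of the control, beside 111.4% and 107.9% for the sum over all genes. Over the eEF1 and eEF2 genes, the log2 ratio of summed FPKM was −0.069 as deposited and −0.174 by reads in genes.

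EEF1A2, the form otherwise found in neurons and muscle, was at 21.4 FPKM in the control (interval 20.4 to 22.4) against 11.2 (10.4 to 11.95) and 18.9 (17.9 to 19.9) in knockdown libraries 1 and 2. It had the lowest fitted log2 fold change of the 54, −0.52 ± 0.31 (SE; limma adjusted p = 0.650), and knockdown 1 carried most of it, at 52.3% of the control beside 88.4%. Of the exchange factor genes, EEF1B2 was at 183.7, 212.9 and 188.9, higher in both as deposited but not in TPM, by reads in genes or under quantile normalization. EEF1D was at 14.8, 21.4 and 15.3, with knockdown 1 alone clear of the control, and EEF1E1, a partner of the tRNA synthetase complex, at 17.8, 18.4 and 18.8.

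EEF1G, the structural subunit of the exchange factor, was listed at 0 in all 3 libraries. Of its exonic bases (chromosome 11, 62559601 to 62574086, minus strand) 99.9% lie in exons of AP002990.1, an overlapping gene on the same strand, which had 28, 35 and 30 reads. The readthrough genes EEF1E1-BLOC1S5 and EEF1AKMT4-ECE2 share 100% of their exonic bases in the same way. Across the annotation, 303 of 320 protein-coding genes with at least 99% of exonic bases shared on the same strand were listed at 0 in all libraries (94.7%), against 21.9% of the others. The 0 is therefore given only as the listed value, and EEF1G entered no count of members above or below the control. It adds 0 to the summed FPKM of its complex, and its annotated start is among the promoters described below. EIF4E1B, the other member at 0, shares 0% of its bases.

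**Figure D5:**
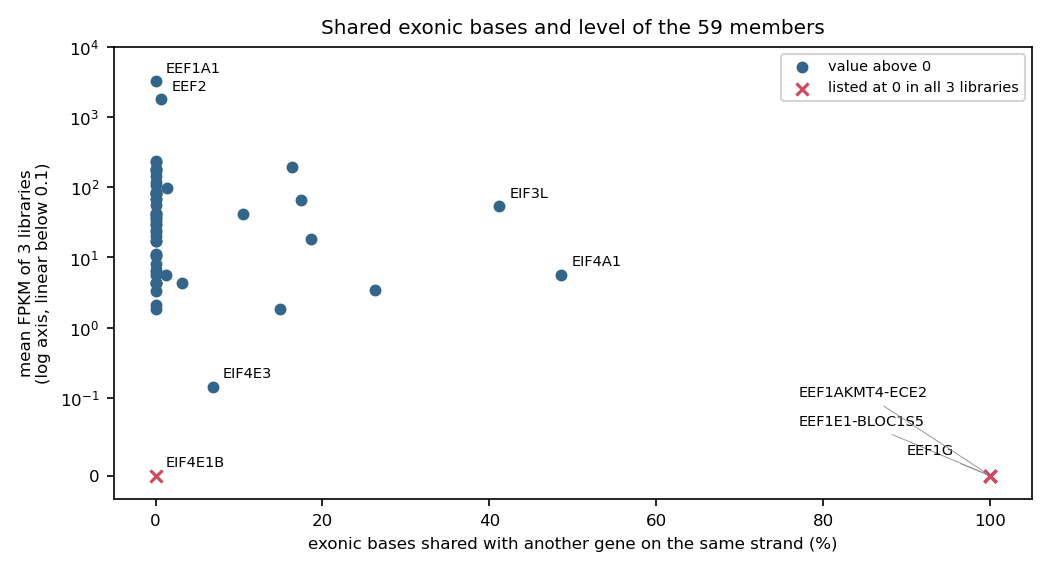
Mean FPKM of the 3 libraries (log axis, linear below 0.1) against the percent of exonic bases that lie in exons of another gene on the same strand, for the 59 members. EEF1G and both readthrough genes sit at the far right and at 0, and EIF4A1 and EIF3L follow at 48.6% and 41.1%.

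The mRNAs of elongation factors, of EIF3E, EIF3F and EIF3H and of EIF4B are known to begin with a terminal oligopyrimidine (TOP) motif, a C at the cap followed by a run of pyrimidines, through which mTORC1 controls their translation. Of 9 tested members of this list of 10, 5 had both knockdown libraries below the control and 3 above (7 and 0 by reads in genes), with a median log2 fold change of −0.04. Of the 45 tested members outside the list, 6 were below and 28 above (12 and 20), with a median of 0.17. The difference between these lists was not tested, and members of a complex share function and abundance. The list holds members only, most of them elongation factors, so its counts do not describe TOP mRNAs at large. Of 82 tested cytosolic ribosomal protein genes, which are outside it, 68 were above in both and 7 below (33 and 20 by reads in genes).

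Annotated starts were compared with this list in RefSeq promoters (GRCh38.p14), which held 48 of the 59 members. A C at the start followed by at least 4 of C or T was found at a start of 5 of the 6 listed members with an entry (all but EEF1G). It was also found for 6 other tested members. Of all 27305 genes in that table, 5.14% have it. The windows below cover 10 bases before the start and 20 from it on, with the run in capitals. They are shown so that members that were lower in both knockdown libraries (EEF1A1, EEF2 and EIF4B) can be set beside one with the control in between (EIF3F) and others that were higher in both as deposited (EEF1B2, EIF3K and EIF4A2; EEF1B2 not by reads in genes, where EIF3F is lower in both):
EEF1A1 (chr6:73521013-73521042, minus strand): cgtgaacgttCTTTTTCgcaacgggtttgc
EEF2 (chr19:3985444-3985473, minus strand): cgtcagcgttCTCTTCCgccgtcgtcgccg
EEF1B2 (chr2:206159885-206159914, plus strand): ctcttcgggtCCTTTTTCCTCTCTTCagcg
EIF3F (chr11:7987327-7987356, plus strand): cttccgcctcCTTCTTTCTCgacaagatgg
EIF4B (chr12:53006446-53006475, plus strand): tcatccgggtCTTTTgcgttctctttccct
EIF3K (chr19:38619178-38619207, plus strand): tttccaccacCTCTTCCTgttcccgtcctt
EIF4A2 (chr3:186783567-186783596, plus strand): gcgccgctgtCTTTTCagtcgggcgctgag

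Of the 11 tested members with such a start, 5 had both knockdown libraries below the control, 4 above and 2 neither, with a median of −0.01; by reads in genes 7 were below and 2 above. Of the 32 tested members with an entry and no such start, 2 were below and 23 above, with a median of 0.21, and by reads in genes 6 and 17. The annotated start was used as given, and starts used in these cells were not analysed here.

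The E-box CACGTG, which reads the same on both strands and is bound by MYC with MAX among other factors, was searched in the same promoters, from 250 bases before to 50 after the start. It was present in 11 of 43 tested members with an entry (25.6%), against 8.77% of all genes in the table. Of these 11, 8 had both knockdown libraries above the control and 2 below, with a median log2 fold change of 0.17; of the 32 without it, 19 were above and 5 below, with a median of 0.13. By reads in genes the counts above and below were 6 and 3 with it, and 13 and 10 without. A match is a description of the letters only. At least 25% higher in both knockdown libraries as deposited were 3 members with a match, and by reads in genes 1. Their matches, and that of EIF4B, which was lower, are shown with the motif in capitals (for EIF4E the first of 2 matches):
EIF4E (chr4:98929341-98929370, minus strand): ctacccatcggcCACGTGaccagtcctttt
EIF4A3 (chr17:80147232-80147261, minus strand): ccagttccctttCACGTGacgaagagtgcc
EIF2B3 (chr1:44986757-44986786, minus strand): gacagagggacaCACGTGtcgaatgctcct
EIF4B (chr12:53006422-53006451, plus strand): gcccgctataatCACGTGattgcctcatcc

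The methyltransferases that modify eEF1A were low and close to the control. EEF1AKMT1 was at 1.99, 2.26 and 1.97 FPKM, EEF1AKMT2 at 1.89, 1.81 and 1.83, EEF1AKMT3 at 4.84, 3.79 and 4.48 and EEF1AKMT4 at 3.54, 3.35 and 3.51. Their reads numbered 43 to 259, and only EEF1AKMT3 in knockdown 1, at 78.3% of the control, was more than 20% from it.

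Of 45 tested genes in 5 lists of regulators and partner factors, 25 had both knockdown libraries above the control and 8 below as deposited (55.6% and 17.8%, against 42.5% and 30.8% of all genes tested). Of the eIF2 kinases and the phosphatase subunits PPP1R15A and PPP1R15B, 2 of 6 had both knockdown libraries above the control and 3 below (1 and 3 by reads in genes). Log2 fold changes were −0.09 for EIF2AK3, the kinase PERK, and 0.11 for PPP1R15A, whose sign turned in TPM and under quantile normalization. EEF2K, the kinase that inhibits eEF2, was at 12.2, 9.78 and 10.1 FPKM, lower in both. EIF4EBP1, the mTORC1 target that sequesters the cap-binding protein, was at 121.0, 112.4 and 160.1, with the control between the knockdown libraries. EIF4EBP3 was at 1.89, 0.558 and 0.979 on 22 reads or fewer.

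Among 11 tested genes of cap-binding control, 5 had both knockdown libraries above the control and 3 below (4 and 3 by reads in genes). PAIP1, a partner of poly(A)-binding protein, had the lowest p of these, at 18.3, 29.4 and 26.9 FPKM. Of 9 tested genes of mTORC1 and S6 kinase, 5 were above and 1 below (4 and 3 by reads in genes). MLST8 was at 21.03, 30.02 and 26.9 and RPS6KB2 at 12.2, 16.96 and 13.95. The other initiation, termination and recycling factors had 7 of 9 above and 0 below (4 and 1 by reads in genes). Among them were the release factor ETF1 at 67.4, 85.7 and 78.3 and MCTS1 at 18.6, 21.7 and 24.2. Of 10 tested genes that modify eEF2 or eIF5A, 6 were above and 1, EEF2K, below (5 and 2 by reads in genes). DPH2, a diphthamide enzyme, was at 23.2, 40.9 and 25.9. No gene of these 5 lists passed an adjusted p of 0.05 by limma (0 of 45; 1 at an unadjusted p under 0.05, where 9.19% of all genes tested had one) or by limma-voom (0, with 5 at an unadjusted p under 0.05, beside 12.1% of all genes).

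Knockdown 1 was farther from the control than knockdown 2 for 41 of the 54 tested members (75.9%, against 63.6% of all genes tested), and by reads in genes for as many (against 62.0%). The 95% Poisson intervals of the knockdown libraries did not overlap for 33 of the 54 (61.1%), against 34% of all genes tested. With a mean of at least 5 FPKM, where more reads narrow the intervals, this held for 32 of 45 members (71.1%) and 46.4% of genes. Of the reads in genes, the members took 4.12%, 3.77% and 3.92% in the control and knockdown libraries 1 and 2. Tested members rested on 43 to 336834 reads in a library.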

How the data were processed

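The authors deposited FPKM values for 58735 Ensembl genes in each of 3 libraries, per the file headers. BWA, Bowtie and hg19 appear in the submitters' processing notes; for read counting, no tool is given in the sources used here. All 58735 identifiers matched GENCODE release 29 (GRCh38), whose coordinates are printed. Multiplying FPKM by summed exon length gave whole reads, within 0.05, for 100% of values. They allow exact 95% Poisson intervals, and limma-voom used them with the implied divisors as library sizes. limma 3.58.1 (R 4.3.3) with intensity trend was fitted on log2(FPKM + 1) for 12640 genes (mean of 1 FPKM or more), with Benjamini-Hochberg adjustment over all of them; fold changes on that scale understate low genes. Alternatives were median-of-ratios, quantile and TPM scaling, no filter or a mean of at least 5 FPKM, no trend, pseudocounts of 0.1, 0.5 and 5, protein-coding genes only, each knockdown library alone, limma-voom on reads (mean of at least 10) and, added after the data were seen, FPKM rescaled from the implied divisors to the reads in genes. Named genes were TRAF7, the up to 4 members of each complex with the lowest p (6 for eIF3), members at least 25% above the control in both libraries, or as far below, paralogues, the 2 highest and lowest members, up to 2 genes of each regulator list with the lowest p, and EIF4EBP1, EEF2K, EIF2AK3 and PPP1R15A; further members, and DHPS, are named after their values were seen. The members and lists were chosen with earlier results of these data known.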

Additional observations from a re-analysis of the deposited data

How the results depend on the processing

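The lone control, the single residual degree of freedom and values on as few as 43 reads limit what could be called, and values with 1 knockdown library left out have no test. Genes passing over the whole table numbered 0 in the reported fit, 3 at a mean of 5 FPKM or more, 13 among protein-coding genes only and 130 by limma-voom. Of the 60 named genes, which leave out the cell type markers, TRAF7 alone passed, in the last 2 of these. Among the 8 erythroid markers 4 passed by limma-voom, beside 0.865% of all genes. They were HBA1, HBA2, HBG1 and TFRC (limma-voom adjusted p = 1.4e-05, 0.0024, 0.0034 and 0.0375). Members above the control in both knockdown libraries numbered 17 in TPM, 20 by reads in genes, and 35 to 39 with 1 library left out. Members below it numbered 18 under quantile normalization, 20 in TPM, 19 by reads in genes, 7 at a mean of 5 FPKM or more, where fewer genes are tested, and 15 to 19 with 1 library left out, where 1 library has to be below. The members' median log2 fold change was 0.039 under quantile normalization, 0.026 in TPM, 0.0498 by reads in genes, 0.091 with a pseudocount of 5 and 0.069 to 0.129 with 1 library left out, the lower value without knockdown 1.

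Medians by complex were 0.051 (start codon selection), −0.127 (eIF2), −0.097 (eIF3), −0.037 (subunit joining), 0.432 (eIF5A), −0.095 (eEF1 and eEF2) and 0.029 (methyltransferases) under quantile normalization. In TPM they were 0.106 (start codon selection), −0.114 (eIF2), −0.066 (eIF3), 0.034 (subunit joining), −0.122 (eEF1 and eEF2) and −0.163 (methyltransferases), and with median-of-ratios 0.013 (eIF3), −0.042 (eEF1 and eEF2) and −0.074 (methyltransferases). By reads in genes they were 0.131 (start codon selection), −0.086 (eIF2), −0.039 (eIF3), 0.062 (subunit joining), −0.094 (eEF1 and eEF2) and −0.112 (methyltransferases). A mean of at least 5 FPKM gave 0.188 (eIF2) and 0.0497 (eIF3), and a pseudocount of 5 gave 0.323 for eIF5A. With 1 library left out they ran from 0.27 to 0.404 for start codon selection, 0.062 to 0.077 for eIF3, 0.151 to 0.363 for the eIF4 group and −0.0074 to 0.011 for eEF1 and eEF2. Log2 ratios of summed FPKM were −0.013 (start codon selection), −0.099 (eIF2), 0.078 (eIF3), 0.00023 (the eIF4 group), 0.109 (subunit joining), −0.201 (eEF1 and eEF2) and −0.225 (methyltransferases) in TPM, and 0.067 (start codon selection), −0.019 (eIF2), 0.159 (eIF3), 0.189 (subunit joining) and −0.121 (eEF1 and eEF2) with median-of-ratios. By reads in genes they were 0.014 (start codon selection), −0.071 (eIF2), 0.105 (eIF3), 0.027 (the eIF4 group), 0.136 (subunit joining), −0.174 (eEF1 and eEF2) and −0.197 (methyltransferases).

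Single genes that changed sign under quantile normalization were EEF1AKMT2 (0.042), EEF1AKMT4 (0.016), EEF1B2 (−0.138), EIF2S2 (−0.039), EIF4EBP1 (−0.114), EIF4G2 (−0.044) and PPP1R15A (−0.084), and in TPM EEF1AKMT1 (−0.042), EEF1B2 (−0.0062) and PPP1R15A (−0.023); by reads in genes EEF1AKMT1 did so (−0.014). Those that did so without knockdown 1 ran over the 2 libraries from −0.0076 to 0.122 (EEF1AKMT1), −0.036 to 0.025 (EIF1), −0.335 to 0.144 (EIF3C), −0.054 to 0.406 (EIF3CL), −0.0062 to 0.421 (EIF4G2) and −0.196 to 0.14 (EIF5B), and those without knockdown 2 from −0.425 to 0.012 (EIF4A1), −0.105 to 0.401 (EIF4EBP1) and −0.126 to 0.068 (EIF4G3). For these 14 genes, and for the scalings, the cause was not tested. No paired analysis was possible because there is only 1 control library for the 2 knockdown libraries.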

Other observations

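Factors of mitochondrial translation were described beside the cytosolic ones. Of 9 tested genes, 7 had both knockdown libraries above the control and 1 below, also in TPM and by reads in genes, with a median log2 fold change of 0.21 (42.5% and 30.8% of all genes tested were above and below as deposited). TUFM, the mitochondrial counterpart of eEF1A, was at 193.5 FPKM in the control against 281.4 and 262.6 in knockdown libraries 1 and 2, and its exchange factor TSFM at 9.28, 15.03 and 12.6. Fitted differences were 0.49 ± 0.13 (SE, log2) and 0.52 ± 0.19, and 0 of the 9 passed an adjusted p of 0.05 by limma (2 at an unadjusted p under 0.05, beside 9.19% of all genes tested) or by limma-voom (3, beside 12.1%). TUFM was thus higher in both knockdown libraries where EEF1A1 was lower in both.

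The 20 cytosolic aminoacyl-tRNA synthetase genes split, with 9 above the control in both knockdown libraries, 4 below and 7 neither, and a median of −0.02; by reads in genes 7 were above and 9 below. FARSB was at 26.5, 37.5 and 36.1 FPKM and RARS at 26.3, 38.7 and 34.1. Of 82 tested cytosolic ribosomal protein genes, 68 were above in both and 7 below, with a median of 0.13, but 33 and 20 by reads in genes and 25 and 27 in TPM. By limma 0 genes of either list passed, as over all genes (2 and 6 at an unadjusted p under 0.05, beside 9.19%). By limma-voom 0 and 1 passed, beside 0.865% of all genes, and 5 and 6 had an unadjusted p under 0.05, beside 12.1%. How these lists differ from the translation factors was not tested.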
